A study of Mus musculus with 100 samples.

Results

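The 39 Hox genes were followed from fibroblasts to pluripotent cells. They were taken from the deposited expression table as the rows named Hoxa, Hoxb, Hoxc or Hoxd with a paralog number, 39 of 25965 genes, and comprised 11 Hoxa, 10 Hoxb, 9 Hoxc and 9 Hoxd genes. The 18 RNA libraries formed 6 groups, with 3 biological replicates in each. Female MEFs were the fibroblasts of a single mid-gestation female F1 embryo with an i4F-BL6 mother and a CAST father, which carried the doxycycline-inducible Yamanaka cassette. F KSR2 and F KSR4 (female) and M KSR3 and M KSR5 (male) were iPSC lines, each grown from 1 picked colony of such reprogrammed F1 MEFs in medium with knockout serum replacement (KSR) and LIF, without doxycycline after picking. The female lines came from the embryo that gave the female MEFs and the male lines from male MEFs, so that sex and embryo cannot be told apart. The colonies were first plated on feeder cells, and no male MEFs were sequenced. TX 2i ESCs were the female embryonic stem cell line TX1072, also a cross of BL6 (maternal) and CAST (paternal), kept in medium with the 2i inhibitors CHIR99021 and PD0325901. They differ from the KSR-iPSCs in both origin and medium, and these cannot be told apart. All 6 groups are thus BL6 by CAST hybrids. In bulk RNA, fewer cells with a transcript and less of the transcript per cell cannot be told apart. Where nothing states that replicates came from separate cultures, p-values measure only the spread between these samples.

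Hox genes encode homeodomain transcription factors that give cells their position along the body axis and the limbs. In each cluster the genes lie in the order of their paralog numbers, and low numbers are generally used in the head and neck, middle numbers in the trunk and high numbers in the tail end, limb tips and genitals. Fibroblasts keep the Hox pattern of the place they come from, whereas in pluripotent cells the clusters are generally held silent by Polycomb proteins. On GRCm38, the Hoxa genes covered chr6:52155367-52260880 on the minus strand, Hoxb chr11:96194316-96368256, Hoxc chr15:102921103-103036843 and Hoxd chr2:74668310-74765143, all 3 on the plus strand.

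Values were deposited as log2 of reads per 1e6 reads (RPM) without a correction for gene length, from which the reads of each gene were recovered. The libraries held 13183036 to 17921280 reads on genes, and 1 read stood at a log2 value between -4.29 and -3.89. Where 0 reads were found, up to 3 may have been missed. Recovered values from 1 to 15 were odd in 78.4 to 84.8% of cases, so that reads may not be independent molecules, and intervals and limits from reads cover counting error only. Within groups, squared differences of replicates had medians of 2.92 to 76.8 counting variances, with the largest in F KSR4. All 15 fibroblast markers had reads in every MEF library and 5 of the 8 pluripotency markers were at 0 reads there, and all 8 pluripotency markers were detected in every pluripotent library. Levels of different genes are compared only as RPM per kb of exon (RPKM), with exons from GENCODE vM21. Some Hox genes overlap on the same strand (Hoxd3 with Hoxd4, Hoxa3 with Hoxa4 to Hoxa6, and Hoxb7 with Hoxb8), and their reads are uncertain between the partners. Other genes on the same strand overlap Hox genes as well, with the same uncertainty. They include Gm20398 (Hoxc5, Hoxc6, Hoxc8, Hoxc9 and Hoxc10), Gm20653 (Hoxa2 to Hoxa6), Gm20440 (Hoxd10 and Hoxd11) and 9930038K12Rik (Hoxa9). In GENCODE, Hoxc5 shares 5.37% of its exons with Hoxc10, while their deposited spans do not overlap.

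The promoter sequences of 22 of the 39 genes were at hand in RefSeq on GRCm38.p6, as 24 windows from 250 bases before to 50 bases after the start. Those 4 are printed that stand for the patterns described next. Hoxb1 was found in KSR-iPSCs and not in MEFs or TX 2i ESCs, Hoxa9 and Hoxd9 were higher in TX 2i ESCs than in KSR-iPSCs, and Hoxd12 was found in MEFs alone. Sequences run 5′ to 3′ on the strand of the gene, and capitals mark each CG dinucleotide, the site of DNA methylation.
Hoxb1, chr11:96365508-96365807, plus strand: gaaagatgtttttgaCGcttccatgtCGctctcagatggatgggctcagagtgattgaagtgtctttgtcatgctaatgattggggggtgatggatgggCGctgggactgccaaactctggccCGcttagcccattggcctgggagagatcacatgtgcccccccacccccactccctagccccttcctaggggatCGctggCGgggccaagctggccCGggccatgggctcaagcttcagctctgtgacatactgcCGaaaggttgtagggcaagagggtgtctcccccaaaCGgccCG
Hoxa9, chr6:52227321-52227620, minus strand: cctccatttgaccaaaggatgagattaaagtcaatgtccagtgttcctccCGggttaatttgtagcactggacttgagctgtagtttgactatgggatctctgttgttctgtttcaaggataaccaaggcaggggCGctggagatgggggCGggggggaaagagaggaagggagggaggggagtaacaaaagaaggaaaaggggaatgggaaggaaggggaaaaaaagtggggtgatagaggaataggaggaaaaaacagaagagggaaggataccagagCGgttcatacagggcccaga
Hoxd9, chr2:74697513-74697812, plus strand: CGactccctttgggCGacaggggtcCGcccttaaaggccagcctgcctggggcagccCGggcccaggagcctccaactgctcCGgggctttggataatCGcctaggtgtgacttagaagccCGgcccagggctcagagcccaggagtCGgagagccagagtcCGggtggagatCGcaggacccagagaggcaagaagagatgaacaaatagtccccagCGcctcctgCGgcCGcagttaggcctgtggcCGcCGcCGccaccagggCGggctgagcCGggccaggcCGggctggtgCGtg
Hoxd12, chr2:74674763-74675062, plus strand: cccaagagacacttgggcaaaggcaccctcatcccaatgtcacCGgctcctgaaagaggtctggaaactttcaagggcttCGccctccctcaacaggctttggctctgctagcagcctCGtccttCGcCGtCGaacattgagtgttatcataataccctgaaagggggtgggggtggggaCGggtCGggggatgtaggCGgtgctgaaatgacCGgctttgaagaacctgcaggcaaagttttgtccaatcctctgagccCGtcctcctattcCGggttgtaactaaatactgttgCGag
The Hoxb1 window held 10 CG dinucleotides, that of Hoxa9 4, that of Hoxd9 20 and that of Hoxd12 13. Over the 24 Hox windows the number ran from 4 (Hoxa9, Hoxd4 and a window of Hoxd11) to 45 (Hoxa13), with a median of 14.5, beside a median of 7 over all 32851 windows of the same length. The letters TGATNNAT, in which Hox proteins are known to bind together with Pbx partners, were searched on both strands. They stood in 4 Hox windows (Hoxa2, Hoxb1, Hoxb8 and 1 of the 2 of Hoxd11) and in 8.85% of all windows. A match is only a description of the letters in the window.

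Female MEFs held reads of 36 of the 39 Hox genes in every library, and 35 stood above 1 RPM in all 3. The summed Hox level was 594, 422 and 467 RPM in the 3 MEF libraries. By reads, Hoxa made up 31.0% ± 1.30 (SD, n = 3) of it, Hoxb 27.7% ± 1.27, Hoxc 24.5% ± 1.44 and Hoxd 16.7% ± 1.49. Paralogs 4 to 8 made up 49.8% ± 3.64, paralogs 9 to 13 38.9% ± 2.93 and paralogs 1 to 3 11.3% ± 0.773. Per exon length, 54.7% ± 3.53 of the summed RPKM came from paralogs 4 to 8. Paralogs 9 to 13 gave 37.4% ± 3.07 and paralogs 1 to 3 gave 7.88% ± 0.507. These sets differ in their number of genes, and paralogs 1 to 3 have the fewest. Single genes did not all follow the shares, as Hoxb2 stood at 3.96 RPKM, Hoxa13 at 2.02 and Hoxb9 at 17.4.

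**Figure D1:**
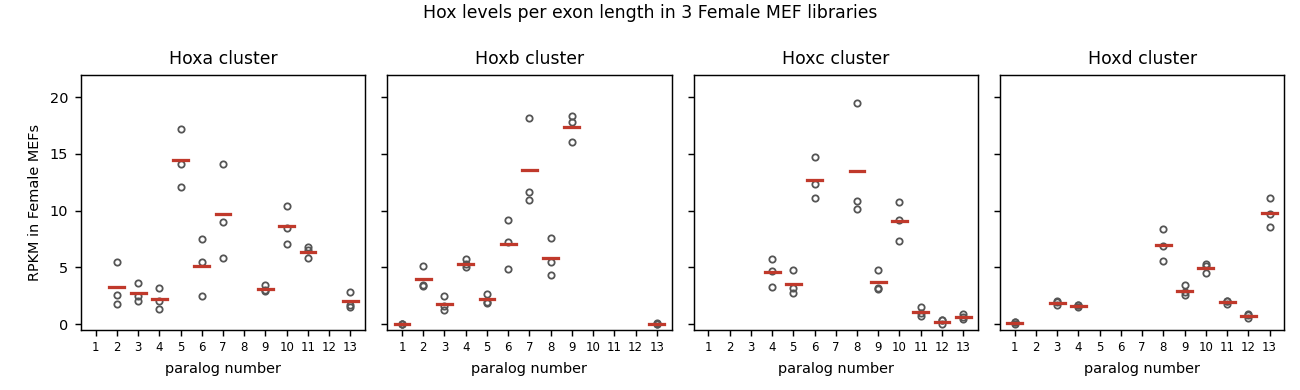
Level per exon length (RPKM, vertical axis, linear) of 38 Hox genes in Female MEFs against their paralog numbers, 1 panel per cluster; open circles are the 3 libraries and red bars their mean. Hoxb9 had the highest mean with 17.4 RPKM, Hoxd13 stood at the top of its cluster with 9.80, and Hoxb1 was at 0.

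In the Hoxa cluster, Hoxa5, Hoxa7 and Hoxa10 had the highest levels per length. Hoxa5, a gene of the lower neck and upper trunk, had 528, 446 and 503 reads, or 14.5 ± 2.55 RPKM. Hoxa7 had 666, 331 and 494 reads, or 9.68 ± 4.18 RPKM. Hoxa10, used in the hind trunk and limb, had 559, 453 and 528 reads, or 8.66 ± 1.70 RPKM. Hoxa7 and Hoxa10 overlapped between libraries, so that their order is open. In the Hoxb cluster, Hoxb9 had the highest mean level of all 39 genes, though single libraries of Hoxb7 and Hoxc8 reached as high, with 772, 902 and 788 reads, or 17.4 ± 1.17 RPKM. It was followed by Hoxb7 with 459, 332 and 342 reads (13.6 ± 3.97 RPKM) and Hoxb6 with 295, 188 and 270 reads (7.09 ± 2.15 RPKM). Hoxb1, a hindbrain gene, was at 0 reads in all 3 libraries and Hoxb13 had 0, 3 and 1 read.

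Hoxc8, a gene of the trunk, led its cluster with 905, 565 and 583 reads, or 13.5 ± 5.22 RPKM. Hoxc6 had 580, 525 and 564 reads (12.7 ± 1.83 RPKM) and Hoxc10 337, 274 and 335 reads (9.11 ± 1.74 RPKM). Hoxc6 lay within the range of Hoxc8. In the Hoxd cluster, Hoxd13, which shapes the digits, had the highest level with 453, 416 and 459 reads, or 9.80 ± 1.30 RPKM. Hoxd8 followed with 377, 299 and 361 reads (6.95 ± 1.42 RPKM) and Hoxd10 with 157, 182 and 156 reads (4.97 ± 0.401 RPKM).

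Paralog groups 4, 9 and 13 have a member in each of the 4 clusters, and their members differed within MEFs. Of group 4, Hoxb4 stood at 5.34 ± 0.363 RPKM, Hoxc4 at 4.57 ± 1.23, Hoxa4 at 2.21 ± 0.910 and Hoxd4 at 1.64 ± 0.0992. Of group 9, Hoxb9 stood at 17.4 ± 1.17, Hoxc9 at 3.70 ± 0.954, Hoxa9 at 3.13 ± 0.251 and Hoxd9 at 2.95 ± 0.454. In that group the range of Hoxb9 lay above those of the other members, which overlapped. Group 13, the genes of the tail end and limb tips, had Hoxd13 at 9.80 ± 1.30, Hoxa13 at 2.02 ± 0.732, Hoxc13 at 0.663 ± 0.191 and Hoxb13 at 0.0310 ± 0.0352. The posterior limb genes Hoxa13 and Hoxd13 were thus read together with the trunk genes Hoxc6 and Hoxc8 in the same libraries. The 12 further position factors of the limb and body wall that were listed, among them Tbx5 of the forelimb (233 reads in its highest MEF library) and Pitx1 of the hindlimb (439), could all be tested.

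The 2 parental alleles of the Hox genes could be told apart in 23 genes that had at least 5 allelic reads in each MEF library. The maternal BL6 share had a median of 51.5% over these genes and of 51.5% over 10628 autosomal genes with as many reads. Between 40 and 60% lay 16 of the 23 genes, 69.6%, beside 77.7% of the autosomal genes. Summed over a cluster, the maternal share was 49.3% ± 0.933 (SD, n = 3) for Hoxa, 65.0% ± 5.50 for Hoxb, 53.4% ± 8.70 for Hoxc and 43.2% ± 0.496 for Hoxd. For Hoxb the 3 libraries gave 58.7% (95% Wilson interval 54.4 to 62.9%, 511 allelic reads), 69.0% (64.4 to 73.3%, 410 reads) and 67.2% (62.7 to 71.4%, 445 reads), while chromosome 11 as a whole was at 50.9 to 51.1%. The intervals of all 3 lay above the share of the chromosome. Hoxb9 had the highest share with 64.4 to 81.7%, and without it the cluster was at 56.6, 63.4 and 61.7%. Hoxd was at 42.6, 43.4 and 43.5% beside 51.2 to 51.4% for chromosome 2, where the interval of replicate 2 reached 51.6% and so held the share of the chromosome. Its lowest shares were those of Hoxd3, with 28.7% ± 19.7 over 9 to 20 allelic reads, and Hoxd8, with 29.5% ± 4.22 over 24 to 33. Without Hoxd8 the cluster was at 45.7, 47.1 and 45.3%, and without both genes, which were left out after their values were seen, at 48.3, 46.8 and 48.2%, where the intervals of all 3 libraries held the share of the chromosome in either case. No test was made of these shares, and the part of mapping to either genome in them was not tested.

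**Figure D2:**
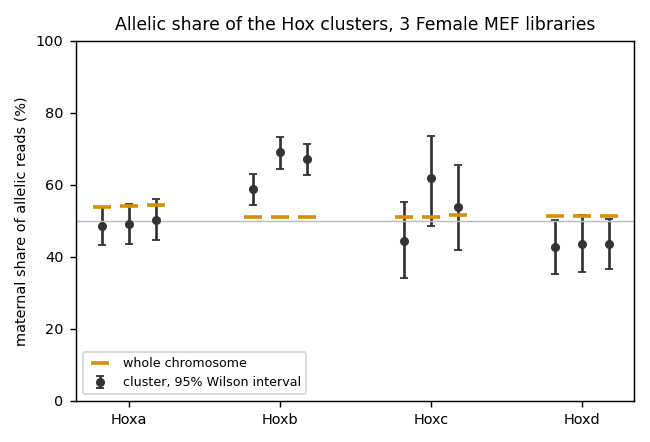
Maternal share of allelic reads (per cent, vertical axis) summed over each Hox cluster in the 3 Female MEF libraries (black points, bars are 95% Wilson intervals), with the share of the whole chromosome in the same library (orange dashes). Hoxb stood at 58.7 to 69.0% and Hoxd at 42.6 to 43.5%.

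In the pluripotent cells most of the fibroblast pattern was gone. Against the mean of the 5 pluripotent groups, 38 Hox genes could be tested and 33 were lower in pluripotent cells (limma, Benjamini-Hochberg adjusted p below 0.05 over 14632 genes), where 32.5% of all genes tested were lower. Higher were 3 Hox genes, Hoxb1, Hoxb13 and Hoxd1, where 42.1% of all genes were higher, and 2 did not pass, among them Hoxc13. The genes lower were 10 Hoxa, 8 Hoxb, 7 Hoxc and 8 Hoxd genes. The median log2 difference of the 38 genes was -5.38, beside 0.21 over all genes. Of the 38 genes, 19 had passed the filter of 1 RPM in 3 libraries through the MEFs alone, so that these had to be lower, and all 19 were. The 3 higher genes had no MEF library above 1 RPM and passed through the pluripotent libraries alone, so that their direction was fixed as well. With no filter, all 39 genes were tested and the same 33 were lower, where 20.9% of all 25965 genes were lower, while 2 were higher, where 24.7% were, and Hoxd1 no longer passed. Without any 1 MEF library and with the filter applied again, 26 genes were tested and 21 were lower. In 32 of the 38 genes all 15 pluripotent libraries lay below all 3 MEF libraries, as in 23.9% of all genes; of the 33 lower genes the exception was Hoxa4. Hoxc12 was not tested, with 6, 7 and 0 reads in MEFs and 0 to 19 in the pluripotent libraries.

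**Figure D3:**
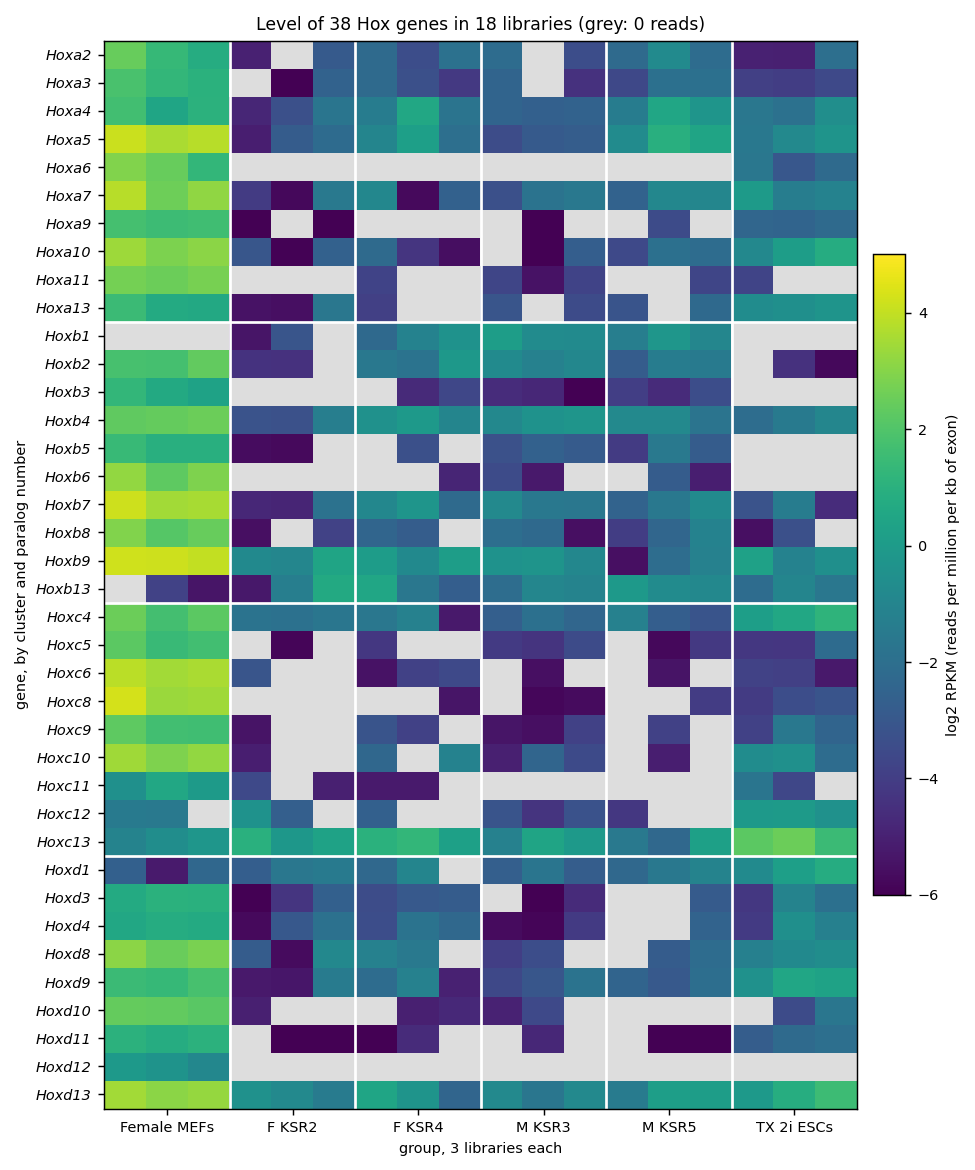
Level per exon length (log2 RPKM, colour scale) of 38 Hox genes (rows, by cluster and paralog number) in the 18 libraries (columns, 3 per group); grey cells had 0 reads. Hoxd12 had reads in MEFs and in none of the 15 pluripotent libraries, and Hoxb1 in 11 of the 12 KSR-iPSC libraries and in none of the MEF or TX 2i libraries.

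Hoxc8, Hoxc6, Hoxb6 and Hoxa11 were left with at most 5 reads in any pluripotent library. They passed the filter through the MEFs alone, so that their differences are given as sizes and not as tests. Hoxc8 went from 905, 565 and 583 reads to 0 to 3 reads in the 12 KSR-iPSC libraries (median 0) and to 3, 5 and 5 reads in TX 2i ESCs, a log2 difference of -8.89 ± 0.40 (SE). Hoxc6 went to 0 to 5 reads in KSR-iPSCs and to 3, 3 and 1 in TX 2i ESCs (-8.54 ± 0.50). Hoxb6 had 0 to 5 reads in KSR-iPSCs and 0 in the TX 2i libraries (-7.73 ± 0.49), and Hoxa11, a gene of the forearm and the uterus, 0 to 3 reads in all 15 (-7.56 ± 0.52). These differences take 0 reads at the value of 0.9 read and are no limits. Hoxd12 was at 39, 39 and 26 reads in MEFs and at 0 in all 15 pluripotent libraries, so that MEFs exceeded F KSR4 at least 10.7-fold and M KSR3 at least 11.6-fold, the ends of the range over the 5 groups with 3 reads per library as the floor. With 6 reads, as if each fragment counted for a pair, these limits were 5.37 and 5.79. Hoxa6 was at 0 in all 12 KSR-iPSC libraries, against 108, 94 and 41 reads in MEFs and 5, 2 and 3 in TX 2i ESCs.

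Other genes kept a low level. Hoxa4 went from 83, 43 and 63 reads to 1 to 43 in KSR-iPSCs (median 7.5) and 9, 8 and 17 in TX 2i ESCs, and was at 21.2% of the MEF level by mean RPM, a log2 difference of -2.75 ± 0.58 (adjusted p = 0.000397). Hoxb4 had 211, 265 and 280 reads in MEFs, 5 to 43 in KSR-iPSCs (median 25) and 11, 17 and 21 in TX 2i ESCs, or 9.29% of the MEF level. Hoxd13 had 7 to 62 reads in KSR-iPSCs (median 25.5) and 43, 84 and 114 in TX 2i ESCs, or 9.36% of the MEF level. Hoxb9 had 1 to 56 reads in KSR-iPSCs (median 27) and 57, 22 and 28 in TX 2i ESCs, or 3.97%. All 4 remained detected in every pluripotent library.

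Among the Hoxa genes, Hoxa2, which patterns the second pharyngeal arch, had 160, 90 and 60 reads in MEFs, 0 to 19 in KSR-iPSCs and 1, 1 and 7 in TX 2i ESCs. Hoxa3 had 356, 291 and 236 reads in MEFs, 0 to 28 in KSR-iPSCs and 7, 7 and 8 in TX 2i ESCs. Hoxa7 had 1 to 28 reads in KSR-iPSCs and 51, 21 and 21 in TX 2i ESCs, with no overlap with its MEF reads. Of the Hoxb genes, Hoxb7 had 1 to 23 reads in KSR-iPSCs and 3, 11 and 1 in TX 2i ESCs, and Hoxb8 went from 329, 224 and 275 reads to 0 to 21 and to 1, 5 and 0. Hoxc10 had 0 to 13 reads in KSR-iPSCs and 22, 26 and 7 in TX 2i ESCs. All of these stood well below the fibroblasts in both kinds of pluripotent cells.

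In the Hoxd cluster, Hoxd3 went from 114, 169 and 156 reads to 0 to 11 in KSR-iPSCs and 4, 37 and 17 in TX 2i ESCs. The overlapping Hoxd4 went from 74, 100 and 93 reads to 0 to 15 and to 3, 38 and 20. Hoxd8 had 0 to 25 reads in KSR-iPSCs and 21, 30 and 28 in TX 2i ESCs. Hoxd11, used in the forearm, went from 143, 146 and 166 reads to 0 to 3 in KSR-iPSCs and 11, 17 and 17 in TX 2i ESCs. Hoxb3, Hoxb5, Hoxc5, Hoxc9, Hoxc11 and Hoxd10 were lower as well and had at most 17 reads in any pluripotent library.

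Against the single groups, Hox genes lower than in MEFs numbered 30 of 38 for TX 2i ESCs (29.0% of all genes), 33 for F KSR2 (29.0%), 33 for F KSR4 (31.2%), 33 for M KSR3 (28.2%) and 32 for M KSR5 (28.9%). These counts hold the 19 genes that passed the filter through the MEFs alone and had to be lower. With no filter the counts over all 39 genes were 29, 33, 32, 33 and 32 in the same order, and without 1 MEF library and with the filter applied again, as few as 17 of 26 genes were lower in TX 2i ESCs and 20 or 21 in the KSR-iPSC lines. Hoxa4 was missing from the list of M KSR5, with 11, 40 and 23 reads. Missing from that of TX 2i ESCs were Hoxa13, Hoxc4 and Hoxd9. These comparisons share the 3 MEF libraries. Higher than in MEFs was Hoxb13 in each of the 5 groups, alone in F KSR2 (38.0% of all genes higher), with Hoxb1 and Hoxc13 in F KSR4 (34.6%), with Hoxb1 in M KSR3 (39.4%) and M KSR5 (39%), and with Hoxc13 and Hoxd1 in TX 2i ESCs (37.5%). In F KSR2 the call of Hoxb13 (adjusted p = 0.0258) was lost with no filter and without MEF replicate 1 or 3 or F KSR2 replicate 2 or 3.

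Hoxb1, Hoxb13, Hoxc13 and Hoxd1, which were not lower, lie at the ends of their clusters. Hoxa13, Hoxc4 and Hoxd13 lie at cluster ends as well and were lower. Hoxb1, the first gene of Hoxb and an early target of retinoic acid in the hindbrain, was at 0 reads in MEFs and TX 2i ESCs, at 1, 5 and 0 in F KSR2, at 9, 19 and 26 in F KSR4, at 43, 28 and 25 in M KSR3 and at 17, 36 and 21 in M KSR5. Against MEFs this was at least 6.69-fold more in F KSR4, 10.8-fold in M KSR3 and 8.45-fold in M KSR5, with 3 reads per library as the floor, and at least 3.35-, 5.39- and 4.23-fold with 6 reads. The mean of the 5 pluripotent groups differed from MEFs by 3.03 ± 0.48 on the log2 scale. Hoxb13, the last gene of Hoxb, had 0, 3 and 1 read in MEFs, 1 to 59 in KSR-iPSCs (median 20) and 9, 21 and 11 in TX 2i ESCs (3.51 ± 0.84). The lowest KSR-iPSC library, F KSR2 replicate 1, lay within the MEF range. Hoxb1 and Hoxb13 passed the filter through the pluripotent libraries alone, so that their differences are given as sizes and not as tests.

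Hoxd1, the first gene of Hoxd, had 5, 1 and 7 reads in MEFs, 0 to 17 in KSR-iPSCs (median 9) and 20, 40 and 51 in TX 2i ESCs (1.65 ± 0.68, adjusted p = 0.0357). It also passed the filter through the pluripotent libraries alone, so that its direction was fixed. Only the TX 2i libraries stood clear of the MEFs, and the call was lost without MEF replicate 2 (0.75, adjusted p = 0.37), without the filter (adjusted p = 0.0856), with limma-voom (0.099) and with median-of-ratios scaling (0.0707). Hoxc13, a gene of hair and nails, had 19, 32 and 40 reads in MEFs, 9 to 108 in KSR-iPSCs (median 47) and 208, 262 and 110 in TX 2i ESCs (1.00 ± 0.46, adjusted p = 0.0556), and did not pass. It passed with log2(RPM + 1) (adjusted p = 0.0209), and without F KSR2 replicate 2 (0.0472), F KSR4 replicate 3 (0.0439), M KSR3 replicate 1 (0.0347), M KSR5 replicate 2 (0.0263) or TX 2i replicate 3 (0.0483). Halr1, a noncoding gene of the Hoxa region, had at most 1 read in MEFs and stood higher in pluripotent cells (log2 difference 7.47). It passed the filter through the pluripotent libraries alone.

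Summed over the 39 genes, F KSR2 kept 3.79% ± 2.12 (SD, n = 3) of the MEF mean, F KSR4 6.02% ± 1.91, M KSR3 4.01% ± 0.0943, M KSR5 5.44% ± 1.64 and the TX 2i line 10.8% ± 1.40. The 3 TX 2i libraries (9.21, 11.6 and 11.7%) stood above all 12 KSR-iPSC libraries (2.31 to 7.24%). F KSR2 replicate 3 had the highest value of its group, with 6.22% against 2.83 and 2.31%.

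**Figure D4:**
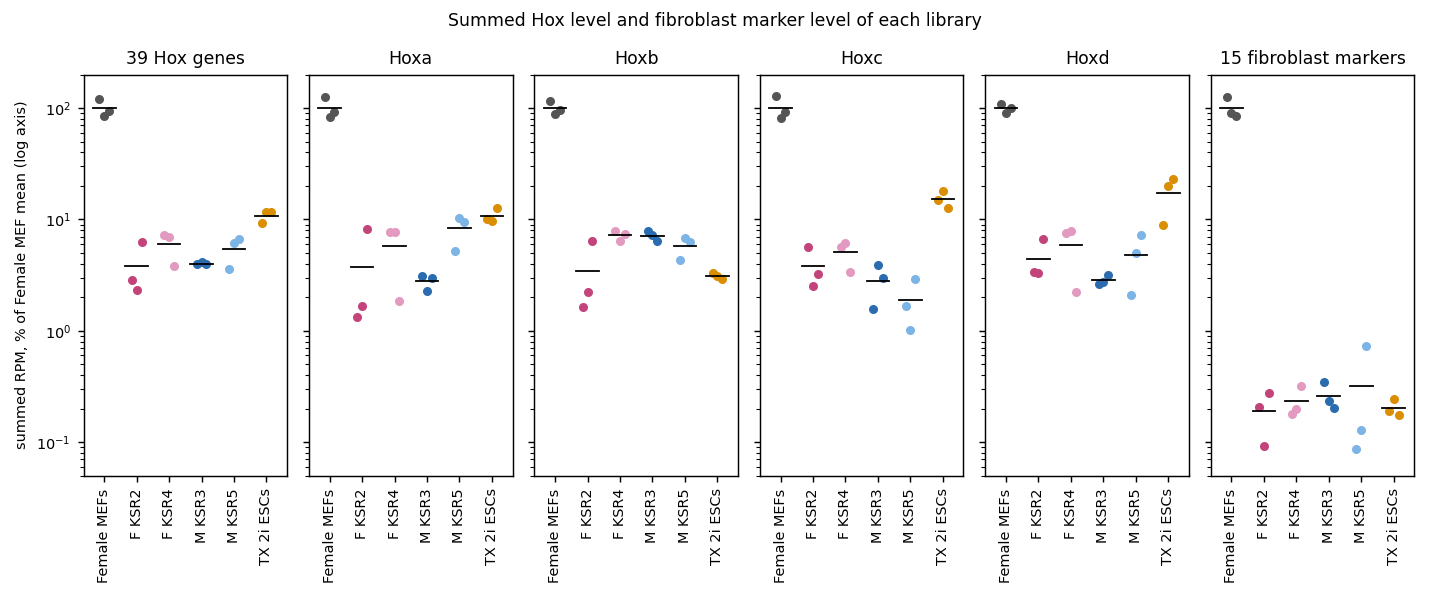
Summed RPM of the 39 Hox genes, of each cluster and of 15 fibroblast markers in each library, as a percentage of the Female MEF mean (vertical axis, logarithmic); points are libraries and black bars group means. The Hox sum stood between 2.31 and 11.7% and the fibroblast markers between 0.0876 and 0.735% in the pluripotent libraries.

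The clusters differed in what remained. Of its MEF level, Hoxb kept 3.11% ± 0.220 in TX 2i ESCs, while F KSR2 was at 3.41% ± 2.56, F KSR4 at 7.24% ± 0.739, M KSR3 at 7.16% ± 0.690 and M KSR5 at 5.78% ± 1.30. The other 3 clusters had their highest group means in TX 2i ESCs. These were 10.8% ± 1.66 for Hoxa, 15.1% ± 2.64 for Hoxc and 17.3% ± 7.48 for Hoxd. The group means of the KSR-iPSC lines ran from 2.79 to 8.32% for Hoxa, 1.88 to 5.08% for Hoxc and 2.86 to 5.89% for Hoxd. For Hoxa, libraries of M KSR5 and TX 2i ESCs overlapped. The Hoxc sum holds Hoxc13, which stood at 668% of its own MEF level in TX 2i ESCs. Paralogs 1 to 3 were at 9.54 to 18.5% of their MEF level over the means of the 5 groups, paralogs 4 to 8 at 1.46 to 5.07% and paralogs 9 to 13 at 3.86 to 16.4%. Anterior Hoxb genes (paralogs 1 to 3) were at 17.5% ± 4.26 in M KSR3 and at 0.350% ± 0.379 in TX 2i ESCs. The 15 fibroblast markers, summed, were at 0.0876 to 0.735% of the MEF level in the pluripotent libraries. The collagen genes Col1a1 and Col1a2 led them, and 1 to 7 of the 15 were at 0 reads in each library, Fap with at most 1 read in all. M KSR5 replicate 3 had the highest value, and its Hox sum was 6.62%, beside 6.14 and 3.56% in the other M KSR5 libraries. The part of remaining fibroblasts or feeders in the Hox levels was not tested.

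Hox genes were next compared between KSR-iPSCs and TX 2i ESCs, where those higher in KSR-iPSCs were about as frequent as among all genes. Of 19 Hox genes tested, 8 were lower in KSR-iPSCs (limma, adjusted p below 0.05), where 12.5% of 13829 genes were lower, and 2 were higher, Hoxb1 and Hoxb2, where 11.2% were higher. Of the 8 lower genes, 6 had passed the filter through the TX 2i libraries alone (Hoxa9, Hoxa10, Hoxa13, Hoxc4, Hoxd1 and Hoxd9), and Hoxb1 and Hoxb2 through the KSR-iPSC libraries alone, so that their direction was fixed by the filter. Hoxc13 and Hoxd13 passed through both. With no filter, all 39 genes were tested, and 12 were lower, where 6.06% of all genes were, and 2 higher, where 5.13% were. Of the 8 lower genes 6 were among the 12, without Hoxd1 and Hoxd13, and Hoxb1 and Hoxb2 were again the 2 higher. The median log2 difference of the 19 genes was -1.57, beside -0.02 over all genes. It includes the genes that passed the filter through 1 side alone, with Hoxd8 (TX 2i) and Hoxa3 (KSR-iPSCs) among them. The filter thus bears on this median. Without any 1 TX 2i library and with the filter applied again, 14 genes were tested and 2 to 3 were lower. In 7 genes all 12 KSR-iPSC libraries lay below the 3 TX 2i libraries, as in 6.49% of all genes, and in no gene above them, where 4.14% of all genes lay above. Lower were 3 Hoxa, 2 Hoxc and 3 Hoxd genes of those tested and none of the 5 Hoxb genes. Of the 8, Hoxa9, Hoxa10, Hoxa13, Hoxc13, Hoxd9 and Hoxd13 belong to the posterior paralogs, and Hoxc4 and Hoxd1 do not. The other posterior paralogs tested, Hoxb9 and Hoxb13, did not pass. As the filter fixed the direction of Hoxa9, Hoxa10, Hoxa13 and Hoxd9, a tendency towards posterior genes was not tested.

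Hoxa9, known from blood stem cells and the hind trunk, had 19 reads in each of the 3 TX 2i libraries and 0 to 9 in KSR-iPSCs, with 0 in 8 of 12 libraries. It was lower by a log2 difference of -4.11 ± 0.61, and F KSR4, with 0 reads throughout, stood at least 6.16-fold under TX 2i ESCs (3.08-fold with 6 reads). Hoxa10 had 32, 66 and 91 reads in TX 2i ESCs and 0 to 15 in KSR-iPSCs (-3.85 ± 0.79). Hoxa13 had 28, 32 and 31 reads against 0 to 13 (-3.73 ± 0.82). These genes passed the filter through the TX 2i libraries alone, so that their differences are given as sizes and not as tests. The levels of these 3 genes in TX 2i ESCs were far below those in MEFs, except that Hoxa13 in TX 2i ESCs did not pass the test against MEFs.

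Hoxd9 had 28, 57 and 42 reads in TX 2i ESCs and 1 to 17 in KSR-iPSCs (-3.15 ± 0.76). This is given as a size, since Hoxd9 passed the filter through the TX 2i libraries alone. Hoxd13 had 43, 84 and 114 reads against 7 to 62, with overlapping libraries (-1.57 ± 0.49, adjusted p = 0.0254). Its call was lost without TX 2i replicate 2 (adjusted p = 0.0949), without TX 2i replicate 3 (0.18) and without the filter (0.0647). Hoxd1 had 20, 40 and 51 reads against 0 to 17 (-2.27 ± 0.72, adjusted p = 0.0279). It too passed the filter through the TX 2i libraries alone, so that its direction was fixed. Its call was lost without TX 2i replicate 2 (0.104), without replicate 3 (0.153) and without the filter (0.0688). Hoxd8 did not pass (-2.58 ± 0.94, adjusted p = 0.0547) but did with log2(RPM + 1) (0.0217) with limma-voom (0.0227), and without F KSR2 replicate 3 (0.0258), F KSR4 replicate 1 (0.0368), F KSR4 replicate 2 (0.0372) or M KSR5 replicate 3 (0.0418). In TX 2i replicate 1 the Hoxd genes stood lowest, at 8.90% of the MEF level against 23.1% in the highest of the 3.

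Hoxc13 had 208, 262 and 110 reads in TX 2i ESCs and 9 to 108 in KSR-iPSCs (-2.15 ± 0.46, adjusted p = 0.00221). Hoxc4 had 52, 72 and 89 reads against 1 to 21 (-2.92 ± 0.62). This is a size and not a test, since Hoxc4 passed the filter through the TX 2i libraries alone. Of the 5 Hoxb genes tested, Hoxb1 and Hoxb2 were higher in KSR-iPSCs. Hoxb2, which acts with Hoxb1 in the hindbrain, had 0, 3 and 1 read in TX 2i ESCs, 3, 3 and 0 in F KSR2, 21, 18 and 47 in F KSR4, 36, 30 and 33 in M KSR3 and 9, 24 and 21 in M KSR5 (3.20 ± 0.50). Hoxb1 differed by 3.70 ± 0.58. Hoxb1 and Hoxb2 passed the filter through the KSR-iPSC libraries alone, so that these are sizes and not tests. Both calls rest on F KSR4, M KSR3 and M KSR5, as F KSR2 overlapped TX 2i ESCs. Hoxb4 (0.31 ± 0.41, adjusted p = 0.646), Hoxb9 (-0.57 ± 0.60, 0.543) and Hoxb13 (0.30 ± 0.86, 0.847) did not pass.

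**Figure D5:**
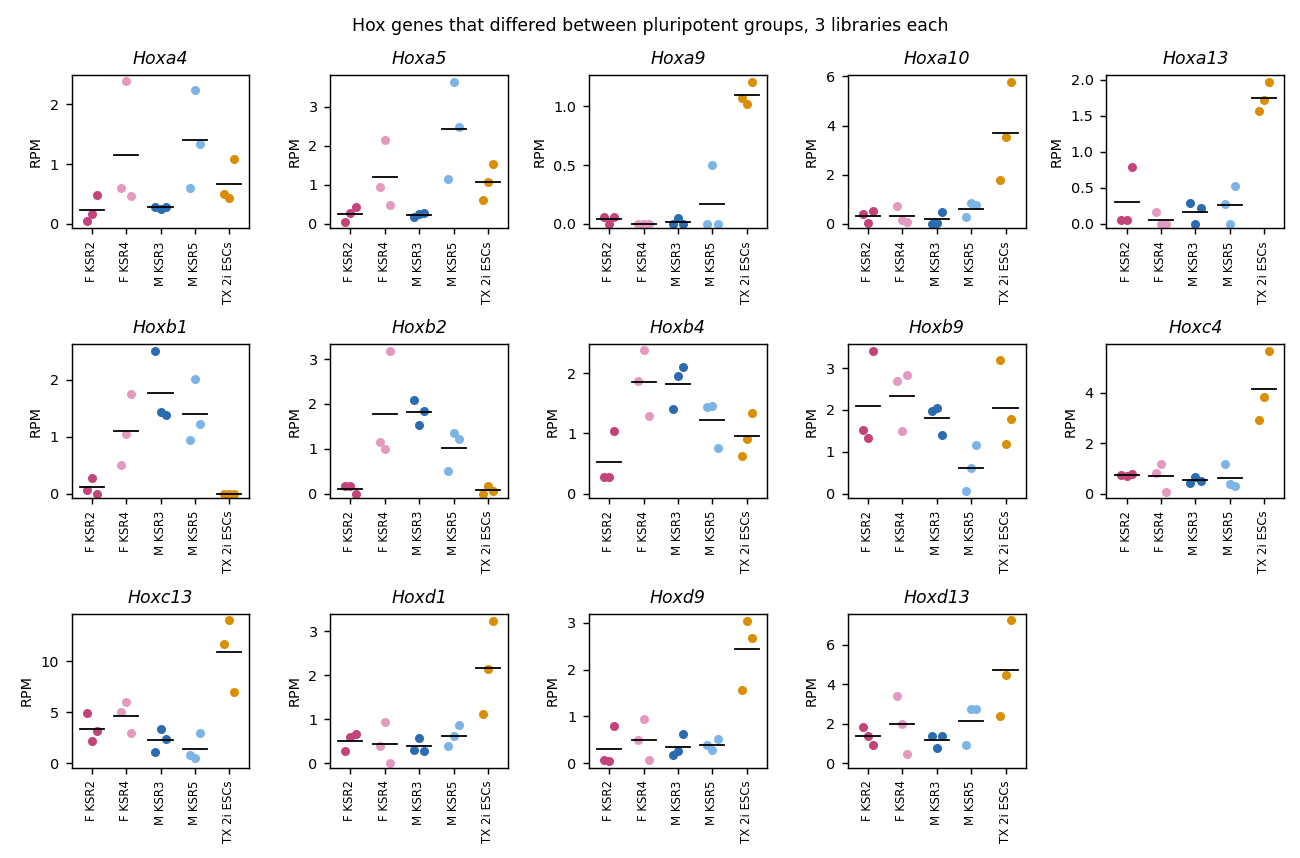
RPM (vertical axes, linear, each with its own scale) of the 14 Hox genes that differed between KSR-iPSCs and TX 2i ESCs or among the KSR-iPSC lines; points are the 3 libraries of each pluripotent group and black bars their mean. Hoxb1 and Hoxb2 were near 0 in F KSR2 and TX 2i ESCs, and the points of Hoxa9, Hoxa10, Hoxa13, Hoxc4, Hoxc13, Hoxd1 and Hoxd9 were highest in TX 2i ESCs.

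The lines themselves differed in 6 of 12 Hox genes tested (limma moderated F-test, adjusted p below 0.05), where 15.4% of 13609 genes differed. They were Hoxa4, Hoxa5, Hoxb1, Hoxb2, Hoxb4 and Hoxb9. For Hoxb1 the line means spanned 4.19 on the log2 scale (adjusted p = 0.00254) and for Hoxb2 3.99 (0.00118), with F KSR2 lowest in both. Hoxb4 had 5, 5 and 17 reads in F KSR2, 34, 43 and 19 in F KSR4, 24, 38 and 38 in M KSR3 and 26, 26 and 13 in M KSR5, a span of 2.07 (0.0235). F KSR2 was lowest again. Hoxb9 had 27, 25 and 56 reads in F KSR2, 49, 27 and 42 in F KSR4, 34, 40 and 25 in M KSR3 and 1, 11 and 20 in M KSR5, a span of 2.73 (0.0462), and here M KSR5 was lowest.

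Hoxa5 had 1, 5 and 7 reads in F KSR2, 17, 39 and 7 in F KSR4, 3, 5 and 5 in M KSR3 and 21, 65 and 43 in M KSR5, a span of 3.56 (adjusted p = 0.00419). Hoxa4 had 1, 3 and 8 reads in F KSR2, 11, 43 and 7 in F KSR4, 5, 5 and 5 in M KSR3 and 11, 40 and 23 in M KSR5, a span of 2.90 (0.0356). For both, M KSR5 was highest, M KSR3 and F KSR2 low, and F KSR4 between them with a wide spread. The count of 6 fell to 3 in a fit of the 12 KSR-iPSC libraries alone, and to 3 without F KSR2 replicate 1, F KSR2 replicate 2, M KSR3 replicate 2 or M KSR3 replicate 3.

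The chromosome segments around the clusters were not alike in the 4 lines. In M KSR3, 184 genes within 10 Mb of Hoxb stood 0.60 (log2, median) above the mean of the other 3 lines, and their maternal share was 67.2 to 68.1%, beside 49.4 to 51.6% in the other pluripotent groups. Chromosome 11 as a whole stood 0.30 above in M KSR3, with 61.5 to 61.7%. In M KSR5, 89 genes within 10 Mb of Hoxc stood 0.39 above, with a maternal share of 56.5 to 65.8%. In F KSR2, 41 genes around Hoxa stood 0.25 above and had a maternal share of 94.0 to 98.6%. Around Hoxd the medians of the 4 lines lay between -0.03 and 0.06. Around Hoxb, F KSR2 stood lowest at -0.23, F KSR4 at -0.17 and M KSR5 at -0.15. The part of these segments in the Hox levels was not tested.

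Genes that work with the Hox genes were counted as well. Of 9 TALE cofactors, the homeodomain partners that bind DNA together with Hox proteins, 6 were lower and 1 was higher in pluripotent cells than in MEFs, with a median log2 difference of -1.38, where 32.5% of all genes tested were lower and 42.1% higher. Meis1 fell by 3.84 on the log2 scale, and Pbx4 was higher by 2.98. Between KSR-iPSCs and TX 2i ESCs, 3 were higher, Meis1 by 2.33 (adjusted p = 0.00172), and 3 were lower, Meis2 with -1.74 (0.00986), where 11.2% of all genes were higher and 12.5% lower. Of 8 ParaHox, Cdx and Evx genes, the relatives of the Hox genes and regulators of posterior Hox genes, 5 were tested and 4 were higher in pluripotent cells than in MEFs, where 42.1% of all genes were. All 5 had at most 1 read in any MEF library and passed the filter through the pluripotent libraries alone, so that they could only be higher. Evx2, the neighbour of Hoxd13, was not among those tested, with 11 to 19 reads in MEFs and at most 1 in any pluripotent library. Cdx1 was lower in KSR-iPSCs than in TX 2i ESCs (-2.46, adjusted p = 0.000459), and Gsx1 was higher (3.10). Gsx1 had at most 1 read in any TX 2i library, so that the filter fixed its direction.

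Retinoic acid is the classic signal that opens the anterior Hox genes. Of 16 genes of its pathway, 14 were tested in KSR-iPSCs against TX 2i ESCs, where 8 were higher and 3 lower in KSR-iPSCs, with a median log2 difference of 1.93, where 11.2% of all genes were higher and 12.5% lower. Higher were the receptors Rara, Rarb, Rarg and Rxrg, the binding protein Crabp2, the importer Stra6, and Cyp26a1 and Dhrs3, which lower the retinoic acid of a cell. Cyp26a1 differed by 4.59 and Rxrg by 4.89. Rarb, Rxrg, Stra6 and Cyp26a1 had at most 5 reads in any TX 2i library and passed the filter through the KSR-iPSC libraries alone. Their direction was thus fixed. The synthesis enzymes Aldh1a2 (-2.31) and Aldh1a3 (-4.53) were lower, as was Rxra. Among the 4 lines 2 of the 14 differed, Rara and Crabp2, where 15.4% of all genes differed, while Cyp26a1 did not pass (moderated F-test, adjusted p = 0.228). Of 12 limb position factors all 12 were lower in pluripotent cells than in MEFs, with a median of -6.15, where 32.5% of all genes were lower. Tbx5, Pitx1, Shox2, Emx2 and Lhx9 passed the filter through the MEFs alone, so that these had to be lower. In KSR-iPSCs 3 of 7 tested were lower than in TX 2i ESCs (Hand2, Tbx15 and Lhx2), where 12.5% of all genes were. Hand2 passed there through the TX 2i libraries alone.

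The chromosome neighbours of the clusters were mostly higher in pluripotent cells or did not pass the test. Of 22 neighbours, 21 were in the table and 19 tested between MEFs and pluripotent cells, 12 were higher and 1 lower in pluripotent cells, with a median log2 difference of 0.85, where 42.1% of all genes were higher and 32.5% lower. Evx2, given above, was not tested and was at or near 0 reads in pluripotent cells. Calcoco2 near Hoxb had at most 1 read in MEFs and 214 to 7539 in pluripotent cells, and Nfe2l2 near Hoxd was the one lower (-0.29). Evx1 and Ttll6, also higher, had at most 1 read in any MEF library, so that the filter fixed their direction as it did that of Calcoco2. Of 13 noncoding RNAs of the clusters, 11 were matched and 4 tested, of which Hoxa11os, Hoxb3os and Hotairm1 were lower in pluripotent cells and Halr1 higher. Hoxa11os and Hoxb3os passed the filter through the MEFs alone and Halr1 through the pluripotent libraries alone, so that the direction of these was fixed. Hotair, a noncoding RNA of the Hoxc cluster, had at most 12 reads in a MEF library and at most 1 in a pluripotent one.

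Markers of other cell types were compared beside these levels. Of 6 endoderm markers 5 were tested in KSR-iPSCs against TX 2i ESCs, where 4 were higher in KSR-iPSCs, beside 11.2% of all genes, and their summed level was highest in M KSR3 (84.7 to 112 RPM, against 3.59 to 8.08 in TX 2i ESCs). Of 6 neural markers 3 were tested and 2 were higher in KSR-iPSCs, beside the same 11.2%, with sums of 20.0 to 78.5 RPM against 22.3 to 27.7. The endoderm markers Foxa2 and Sox7 and the neural marker Pax6 passed the filter through the KSR-iPSC libraries alone, so that their direction was fixed. Of 6 early mesoderm markers 2 were tested, T (adjusted p = 0.97) and Eomes (0.608), and did not pass, with sums of 7.08 to 55.3 RPM in KSR-iPSCs against 13.2 to 18.5. The part of differentiating cells in the Hox levels was not tested.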

How the data were processed

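RNA-seq values of 18 libraries were used. The authors trimmed strand-specific polyA reads with Trim Galore 0.6.1, aligned them to GRCm38 with HISAT2 2.1.0 and quantified them on genes in SeqMonk, and they deposited log2 RPM of 25965 genes in 4 columns per library (all, unassigned, BL6 and CAST reads), 72 in all. The labels state paired-end and the methods single-end reads. Dividing the antilog by the value of 1 read gave reads, whole to within 0.05 in 99.97 to 100% of cases per library. In the file 0 reads stand at 0.9 read. The genome1 columns were taken as maternal. Rows were matched by symbol, since the identifier given for some Hox genes is that of an overlapping feature, and coordinates are those of the table.

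limma 3.58.1 in R 4.3.3 (intensity trend, Benjamini-Hochberg threshold 0.05) was fitted on all 18 libraries, 1 coefficient for each group, after dropping genes that did not exceed a log2 value of 0 in 3 compared libraries. MEFs were set against each pluripotent group and their average, TX 2i ESCs against the average of the 4 KSR-iPSC lines, and the 4 lines against each other in a moderated F-test. The fits were tested on simulated data. Other values were computed in Python 3.11.15 (pandas 2.3.3, scipy 1.17.1). Values are given for the 3 genes per cluster with the highest RPKM in MEFs, genes past the threshold between pluripotent groups, genes with a mean of at least 10 reads in a pluripotent group, and paralogs 4, 9 and 13. Values of 1 Hox gene and 1 cofactor are not reported here, apart from counts and sums. Other lists are given by counts with up to 4 names in each direction. Hoxd12 and the retinoic acid and noncoding genes named beyond that were chosen after their values were seen. The Hox genes and all gene lists were chosen with earlier results of these data known. Alternatives were log2(RPM + 1), no or a stricter filter (log2 above 1), limma-voom on recovered reads, median-of-ratios scaling, a replicate block, subsets of groups and leaving out each library, with the tested genes kept as in the full fit.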

Additional observations from a re-analysis of the deposited data

Results flagged for a closer look

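For 14 Hox genes the change from the fibroblasts differed between pluripotent groups by the test of that difference (limma, Benjamini-Hochberg adjusted p below 0.05 over all genes tested), and these are listed here for that reason. The log2 difference of KSR-iPSCs from TX 2i ESCs was 3.70 for Hoxb1 and 3.20 for Hoxb2, and the other way -4.11 for Hoxa9, -3.85 for Hoxa10, -3.73 for Hoxa13, -3.15 for Hoxd9, -2.92 for Hoxc4, -2.27 for Hoxd1, -2.15 for Hoxc13 and -1.57 for Hoxd13. Hoxb1 and Hoxb2 had passed the filter on low values through the KSR-iPSC libraries alone, and Hoxa9, Hoxa10, Hoxa13, Hoxc4, Hoxd1 and Hoxd9 through the TX 2i libraries alone, so that the direction of these was fixed. Among the KSR-iPSC lines the range of the line means on the log2 scale was 4.19 for Hoxb1, 3.99 for Hoxb2, 3.56 for Hoxa5, 2.90 for Hoxa4, 2.73 for Hoxb9 and 2.07 for Hoxb4. With 3 libraries in each group, single libraries were not tested for standing apart from their group.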

How the results depend on the processing

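The direction of no called difference was reversed under any alternative. With a log2 value above 1 required in 3 libraries, fewer Hox genes were tested (34 against MEFs, 7 between KSR-iPSCs and TX 2i ESCs, 6 among the lines), with 1 higher than in MEFs, 1 higher in M KSR3 and 1 in M KSR5, 3 lower and 0 higher in KSR-iPSCs than in TX 2i ESCs (limma; Hoxb1 and Hoxb2 were not among the genes tested), and 2 differing among the lines. Among the lines 3 differed in a fit of the 12 KSR-iPSC libraries. Higher than in MEFs was 1 gene in M KSR3 with log2(RPM + 1) and 0 in F KSR2 without a filter. Median-of-ratios scaling moved the libraries by -0.205 to 0.115 on the log2 scale and put the Hox sum of M KSR3 at 3.25% and that of TX 2i ESCs at 9.22% of MEFs. Per exon length the Hoxb share in MEFs was 29.2%. The cause of these shifts was not tested except where fewer genes were tested.

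Leaving out 1 library at a time, 33 to 33 Hox genes were lower and 2 to 4 higher than in MEFs, 6 to 10 were lower and 2 to 2 higher in KSR-iPSCs than in TX 2i ESCs, and 3 to 6 differed among the lines. Against MEFs, F KSR2 had 0 to 1 higher (0 without MEF replicate 1 or 3 or F KSR2 replicate 2 or 3), F KSR4 31 to 33 lower and 1 to 3 higher (1 without F KSR4 replicate 1), M KSR5 32 to 33 lower and 2 to 3 higher, and TX 2i ESCs 27 to 31 lower. The Hox sum of TX 2i ESCs was 10.1 to 12.0%, that of F KSR2 2.57 to 4.52%, of F KSR4 5.42 to 7.12%, of M KSR3 3.74 to 4.46% and of M KSR5 4.85 to 6.38%. These fits kept the genes tested with all libraries. The filter had first been applied again to the libraries left, and the other choice was made after both results were seen. With the filter applied again, fewer genes were tested, 26 to 38 against MEFs and 14 to 19 against TX 2i ESCs, and 21 to 33 were lower than in MEFs. By group, 21 to 33 were lower in F KSR2 and M KSR3, 20 to 33 in F KSR4 and M KSR5 and 17 to 31 in TX 2i ESCs. The lowest counts came without a MEF library. Without a TX 2i library as few as 2 genes, and at most 10 in the other fits, were lower in KSR-iPSCs than in TX 2i ESCs. In the same fits F KSR2 had 0 to 1 genes higher than MEFs, F KSR4 2 to 3 and the groups together 2 to 4, and 3 to 6 differed among the lines.

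With the replicate block 33 genes were lower and 3 higher than in MEFs and 8 lower and 2 higher in KSR-iPSCs than in TX 2i ESCs, the same counts as without it. The numbers do not pair the samples: deviations of same-numbered libraries correlated with r from -0.32 to 0.55 (median 0.08, 22 of 45 pairs over 0.1). Depth limits the pluripotent levels, where many Hox genes had fewer than 10 reads per library.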
